A study of Mus musculus with 19 samples.

Results

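Transcripts of 8 genes of the growth hormone receptor and STAT5 axis were followed in 19 mice, in hepatocytes, the cells that carry out most of the liver's metabolism. The genes were taken by symbol from the deposited table, which held 24537 genes, and all 8 were found and passed the filter on low counts that left 12269 genes for testing. They are the receptor Ghr, the transcription factors Stat5a and Stat5b, the target genes Socs2, Cish, Igf1 and Igfals, and the repressor gene Bcl6. All mice were male, wild-type C57BL/6J animals with no treatment named in the labels, and each gave 1 poly(A) RNA library. The 10 young mice were labelled 5 months old and the 9 old mice 24 months. They were culled on 2 days, 5 young and 5 old mice on the first and 5 young and 4 old mice on the second. All mice of one age shared a birth date, so young mice were 140 days old on the first cull day and 163 days on the second, and old mice 719 and 742 days. Cull day and that difference in age cannot be told apart. Mice are named here by the library number in the labels.

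Growth hormone is released from the pituitary in pulses that are strongly marked in males. In hepatocytes it binds its receptor GHR, whose kinase JAK2 phosphorylates the STAT5 proteins, chiefly STAT5B, which enter the nucleus and switch on target genes. Cish and Socs2 encode inhibitors of cytokine signalling that damp the same receptor, Igf1 and Igfals encode the secreted growth factor and a subunit of its carrier complex in blood, and Bcl6 encodes a repressor that can occupy STAT5 sites and is itself lowered by growth hormone. STAT5 activity is set by phosphorylation, which RNA levels do not measure.

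In the deposited table (mm10), Ghr lies on chr15:3317755-3583352 on the minus strand and Igf1 on chr10:87859052-87937047 on the plus strand. Stat5b (chr11:100780731-100822570, minus strand) and Stat5a (chr11:100859351-100885169, plus strand) are neighbours that point away from each other. Cish lies on chr9:107296659-107302784 and Igfals on chr17:24878770-24882008, both on the plus strand, and Socs2 on chr10:95411490-95416857 and Bcl6 on chr16:23965052-23988612, both on the minus strand. Counts are over the exons of 1 transcript for each of the 8 genes.

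The sequences below are shown because Cish and Bcl6 varied most between mice and in opposite directions. A STAT5 dimer recognises the palindrome TTCNNNGAA, which reads the same on both strands. It was searched in the RefSeq windows of 250 bases before and 50 bases from the start site on (GRCm38.p6, the same build as mm10), which exist for 7 of the 8 genes (13 windows). Cish, Bcl6 and Igfals held a match, in 5 windows. Each stretch is printed 5′ to 3′ on the gene's strand with the matches in capitals.
Cish, chr9:107296609-107296684, plus strand: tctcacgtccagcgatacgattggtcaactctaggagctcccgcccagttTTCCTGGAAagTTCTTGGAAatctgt
Bcl6, chr16:23981353-23981463, minus strand: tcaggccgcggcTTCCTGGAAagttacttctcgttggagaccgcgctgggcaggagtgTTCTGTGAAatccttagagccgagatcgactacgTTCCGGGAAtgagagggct
Bcl6, chr16:23988942-23989002, minus strand: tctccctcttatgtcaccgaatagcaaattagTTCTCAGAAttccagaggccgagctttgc
Igfals, chr17:24877594-24877634, plus strand: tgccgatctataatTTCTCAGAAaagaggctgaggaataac
Igfals, chr17:24878141-24878201, plus strand: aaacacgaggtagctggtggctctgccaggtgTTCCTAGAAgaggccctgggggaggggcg

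The Cish window held 2 matches, at positions +1 and +12 from the annotated start site. The Bcl6 window of the start site at 23981283 held 3 matches, at -168, -122 and -88, and that of the start site at 23988852 held 1, at -118. The start site at 23981283 lies within the span of the counted Bcl6 transcript, which starts at 23988612. Each of the Igfals windows shown held 1 match, at -236 and at -58. The remaining Igfals window, of the start site at 24878747, held 0 matches. It lies nearest the start of the counted transcript at 24878770. Of all 32851 windows in the RefSeq table, 8.30% held at least 1 match, 0.457% at least 2 and 0.0335% at least 3. The windows of Ghr, Igf1, Stat5a and Stat5b did not hold these letters. A match describes the sequence and is not a measurement of binding.

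Depth was similar across libraries, at 17381439 to 20287628 counts over genes, so that the least counted value among the 8 genes, Cish in a young mouse, rested on 18 counts. Hepatocyte markers summed to 117936 to 172295 CPM (the count scaled to a common library total) in young and 140364 to 222414 CPM in old mice. Of 12 such markers, 2 passed as higher and 3 as lower in old mice (edgeR, adjusted p under 0.05), with a median log2 fold change of -0.165. Of all tested genes 16.3% were higher and 14.5% lower. Macrophage markers summed to 106 to 524 CPM in young and 68.6 to 3348 CPM in old mice, and 13 of 14 were higher in old mice, as were 10 of 14 endothelial and 14 of 14 stellate cell markers, where 16.3% of all tested genes were higher (edgeR, adjusted p under 0.05). Young mice 1184, 1186 and 1188, all culled on the first day, stood apart in acute-phase genes, the liver's response to inflammation. Their acute-phase score, the mean log2 CPM of 22 such genes, was 9.62 to 10.8, against 6.54 to 7.12 in the other young and 7.03 to 9.06 in old mice. For the 8 genes, fits without these mice or with a score of other-cell markers are given where they changed a call or a sign. Some of these stand only in the last section.

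None of the 8 genes passed the age comparison in edgeR's quasi-likelihood test (adjusted p under 0.05), against 30.9% of all tested genes. At an unadjusted p under 0.05 there was 1, Ghr, against 42.3% of all genes. DESeq2 and limma-voom with sample weights also passed 0 of 8, against 33.5% and 32.6% of all genes. The median log2 fold change of the 8 genes was -0.07, beside -0.003 over all tested genes. For cull day none passed, against 12.3% of all genes, and 3 did at an unadjusted p under 0.05 (Igfals, Socs2 and Stat5a), against 30.0%. None passed for a difference in the age effect between cull days, where no gene of the table passed (0.0%) and 0 of the 8 had an unadjusted p under 0.05, against 6.51% of all genes. No gene of the 8 had young and old mice that did not overlap, which 1.72% of all genes had. For Cish, Bcl6 and Socs2 the spread within each age was so wide that the age difference was poorly bounded.

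**Figure D1:**
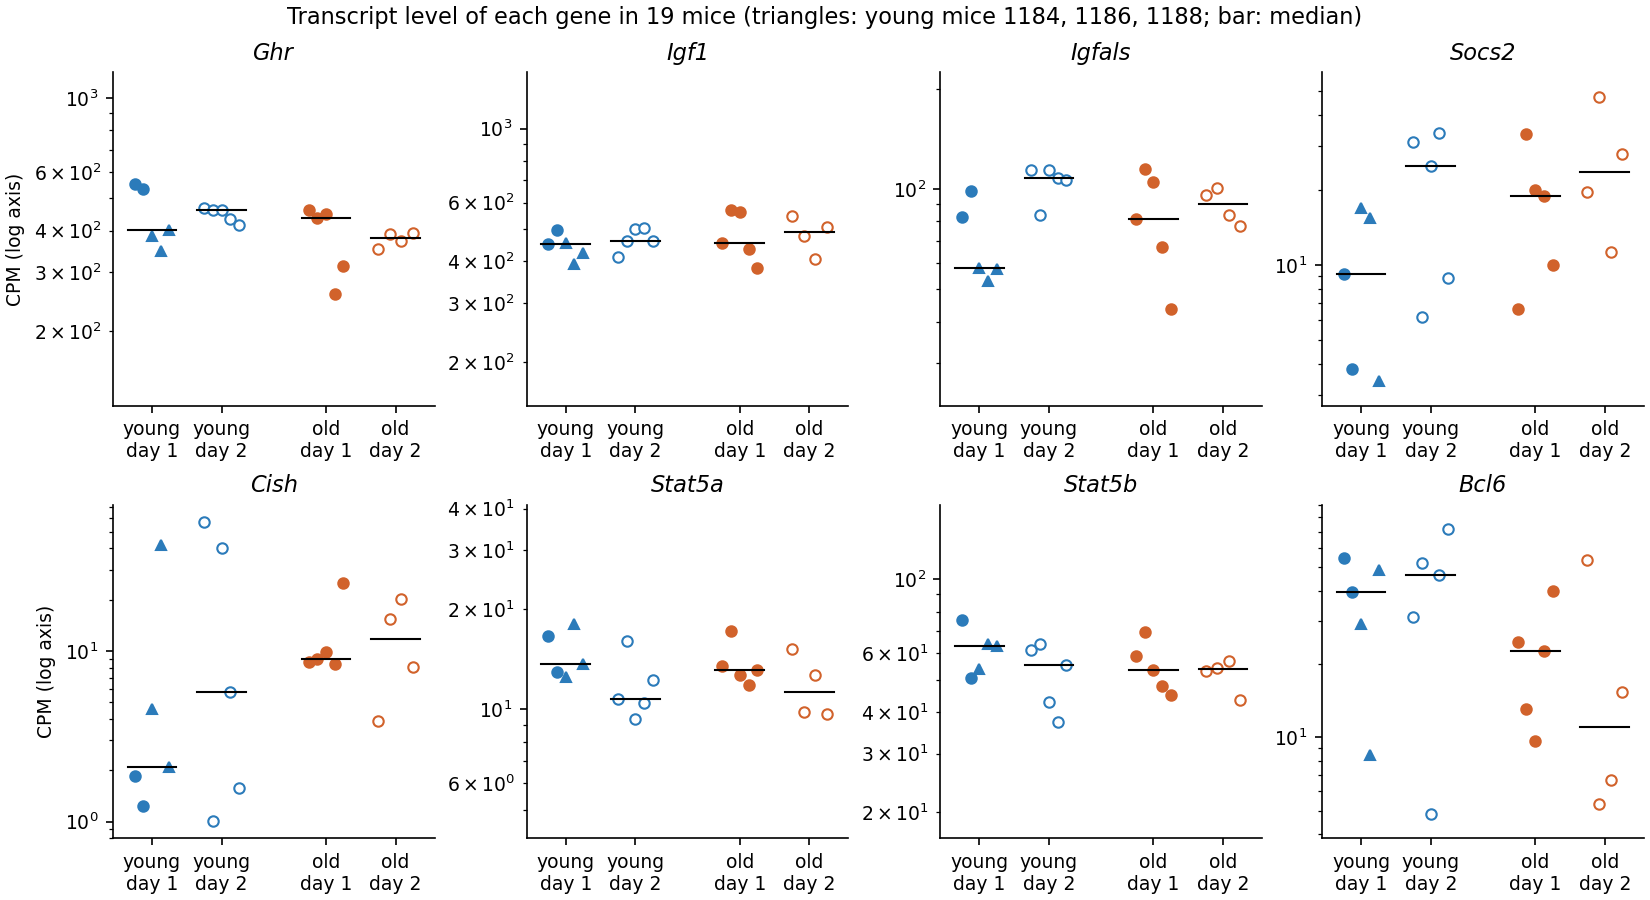
CPM on a log axis, with its own range per panel, for each of the 8 genes in each mouse, by age and cull day; blue points are young mice, orange points old mice, filled points the first and open points the second cull day, and the bar is the median of each set. Cish ran from 1.01 to 57.5 CPM and Bcl6 from 4.85 to 71.8 CPM, while Igf1 stayed between 381 and 571 CPM.

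Ghr, the receptor at the head of the axis, was the most abundant of the 8 transcripts per length of the deposited gene models, at 96.8 ± 16.5 CPM per kb (SD, n = 19). Its place above Igf1 rests on the 7118 bases given for Igf1, of which GENCODE also lists a transcript of 1673 bases, and without regard to length Igf1 had the higher mean level. Its level ran from 347 over a median of 447 to 552 CPM in young mice and from 258 over 391 to 461 CPM in old mice. The groups overlapped: 3 young mice lay above all old mice, and 2 old mice, 1187 and 1189, below all young mice. Ghr averaged 446 ± 63.2 CPM in the 10 young and 381 ± 65.9 CPM in the 9 old mice (mean ± SD). The log2 fold change was -0.23 (SE 0.108, 95% interval -0.45 to -0.00098), with an edgeR p of 0.0491 and an adjusted p of 0.117, so it did not pass.

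The old and young levels of Ghr were closest to separate on the second cull day. On the second day the 5 young mice held 416 to 467 CPM and the 4 old mice 353 to 393 CPM, with no overlap, which 18.6% of all tested genes also had on that day (7.84% with old mice lower). On the first day young mice ran from 347 to 552 and old mice from 258 to 461 CPM. The second day alone gave a log2 fold change of -0.24 (adjusted p = 0.0449 in edgeR), on a day when 19.3% of genes passed. On the first day alone 3.67% of genes passed, and no member did. A difference in the age effect between the days was not detectable (difference -0.04, 95% interval -0.50 to 0.43, adjusted p = 0.989 in edgeR).

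Ghr moved with the acute-phase genes and with markers of other cells. Mice 1184, 1186 and 1188 held the lowest Ghr levels among young mice, 387, 347 and 402 CPM. Leaving them out, the age difference was -0.35 (adjusted p = 0.0304 in edgeR), a fit in which 27.2% of all genes passed and 12.5% of all genes passed as lower in old mice. Over the 13 settings other than left-out single mice its adjusted p ran from 0.0304 to 0.940. Over the 19 mice Ghr fell as the acute-phase score rose (r = -0.679, permutation p = 0.00142, adjusted p = 0.00757; rho = -0.767, permutation p = 0.00023, adjusted p = 0.00368). Adjustment was over the 16 relations of 8 genes with 2 scores. The r was -0.741 without the 2 mice farthest out in the score, -0.664 and -0.883 within the first and second cull day, -0.827 within old mice and -0.837 over the 16 mice left without 1184, 1186 and 1188. Within young mice no r is given because the score separated those 3 from the other 7. The r of the first day includes those 3 mice. On the second day the score did not overlap between ages (6.60 to 7.12 in young, 7.94 to 9.06 in old mice), nor did Ghr. The r of that day, like the others over both ages, therefore includes the age difference. With this score as a covariate the age difference of Ghr was -0.18 (adjusted p = 0.0750 in edgeR).

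The other-cell score, the mean log2 CPM of 45 markers of macrophages, stellate cells, endothelium and lymphocytes, was 2.22 to 3.74 in young and 2.43 to 5.55 in old mice. Ghr was lower where it was higher (r = -0.763, permutation p = 0.00022, adjusted p = 0.00192; rho = -0.604, permutation p = 0.00747, adjusted p = 0.0398). The r was -0.519 without the 2 mice farthest out in the score, one of which, old mouse 1187, had both the highest score and the lowest Ghr level, and -0.796 and -0.725 within the cull days. It was -0.678 within young and -0.693 within old mice. On the second day the score did not overlap between ages (2.40 to 3.40 in young, 3.73 to 4.39 in old mice), nor did Ghr. The r of that day therefore includes the age difference. With the score as a covariate the age difference of Ghr was 0.02 (adjusted p = 0.940 in edgeR), in a fit that passed 12.4% of genes. The part of other cells in the Ghr difference was not tested beyond this fit. In bulk RNA, fewer hepatocytes in a sample and less Ghr RNA per hepatocyte cannot be told apart.

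**Figure D2:**
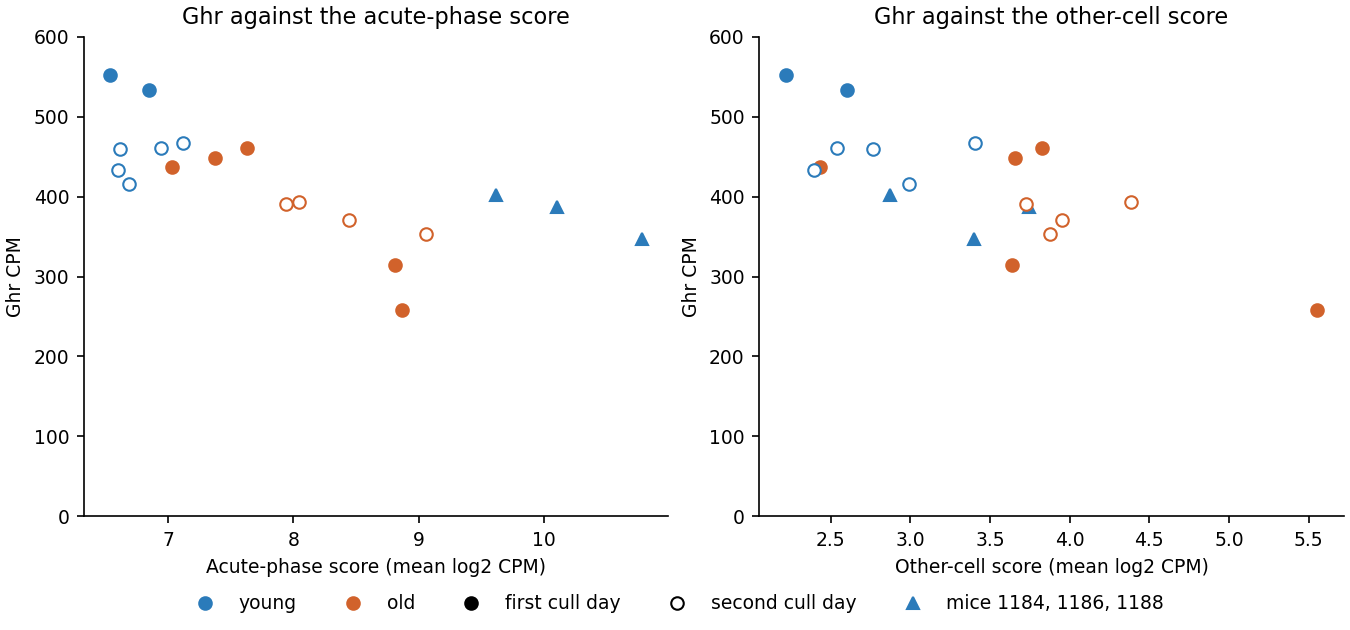
Ghr in CPM on a linear axis from 0 against the acute-phase score (left) and the other-cell score (right), each a mean log2 CPM; 1 symbol is 1 mouse, coloured by age and filled by cull day, and triangles are mice 1184, 1186 and 1188. Ghr falls with both scores, and old mouse 1187 sits at the far right of the other-cell panel at 258 CPM.

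Stat5b, the main hepatic transducer of growth hormone, and its neighbour and close relative Stat5a differed little between the ages. Stat5b ran from 37.2 to 75.3 CPM in young and 43.6 to 69.3 CPM in old mice, with a log2 fold change of -0.09 (SE 0.110, 95% interval -0.32 to 0.14, adjusted p = 0.573 in edgeR). Stat5a ran from 9.36 to 18.1 CPM in young and 9.70 to 17.2 CPM in old mice, with a log2 fold change of -0.05 (SE 0.114, 95% interval -0.29 to 0.18, adjusted p = 0.749 in edgeR). The groups overlapped: 1 young mouse lay above and 2 below all old mice in Stat5b, and 1 above and 1 below in Stat5a. The intervals correspond to ratios of 0.803 to 1.10 for Stat5b and 0.817 to 1.14 for Stat5a. A missed threshold does not show equal levels.

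Per length, Stat5b stood at 10.6 ± 1.84 and Stat5a at 3.38 ± 0.664 CPM per kb (SD, n = 19). The log2 ratio of Stat5b to Stat5a was 2.09 ± 0.205 in the 10 young and 2.06 ± 0.206 in the 9 old mice (mean ± SD). The old minus young value was -0.03 (exact permutation p = 0.792 over 31752 relabellings within cull days, adjusted p = 0.792 over 4 ratios). The pair also varied together from mouse to mouse (r = 0.723, permutation p = 0.00053, adjusted p = 0.0126 over 28 gene pairs; rho = 0.709, permutation p = 0.001, adjusted p = 0.0140). The r was 0.676 without the 2 mice farthest out in Stat5a and 0.806 and 0.600 within the cull days. Without mice 1184, 1186 and 1188 it was 0.711 and no longer passed (adjusted p = 0.0515). Of windows of 100 bases, the read length, 6.99% in Stat5a and 5.18% in Stat5b also occur in the other gene, and how reads with several matches were counted is not given in the sources used here. Stat5a exons also overlap Stat3 on the opposite strand.

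Socs2, an inhibitor that restrains growth through the receptor, had the largest upward log2 fold change of the 8 genes, but it did not pass. Its level ran from 3.4 over a median of 12.3 to 33.9 CPM in young and from 6.61 over 19.6 to 47.4 CPM in old mice. Young mice 1188, 1182 and 1237 lay below all old mice, and old mouse 1238 above all young mice. The log2 fold change was 0.61 (SE 0.395, 95% interval -0.21 to 1.44, adjusted p = 0.246 in edgeR). Socs2 was also higher on the second cull day, by 0.85 (95% interval 0.02 to 1.68), with an edgeR p of 0.0441 that did not pass after adjustment (adjusted p = 0.155). Of windows of 100 bases in Socs2, 10.4% also occur in the predicted gene Gm9847.

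Set against its receptor, Socs2 had a log2 ratio to Ghr of -5.23 ± 1.24 in the 10 young and -4.34 ± 0.917 in the 9 old mice (mean ± SD). The difference was 0.92 (exact permutation p = 0.0700, adjusted p = 0.280 over 4 ratios), 1.16 on the first and 0.69 on the second cull day. The Socs2 to Cish ratio differed by -0.24 between ages (exact permutation p = 0.723, adjusted p = 0.792), and the balance of the 2 feedback genes showed no detectable change.

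Cish, the feedback inhibitor whose transcript follows a growth hormone pulse closely, spanned the widest range of the 8 genes. In young mice it ran from 1.01 over a median of 3.34 to 57.5 CPM, and in old mice from 3.91 over 9.04 to 25 CPM. The young mice fell into 2 separate clusters: 7 held 1.01 to 5.78 CPM, and mice 1235, 1186 and 1239 held 57.5, 42.0 and 40.3 CPM. Those 3 lay above every old mouse, and 5 young mice lay below every old mouse, so that old mice occupied the middle of the young range. Mice 1235 and 1239 came from the second day with acute-phase scores of 7.12 and 6.94, and mouse 1186 from the first day with a score of 10.8. The relation of the clusters to cull day or score was not tested.

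The age difference of Cish was therefore hardly bounded. The log2 fold change was -0.27 (SE 0.721, 95% interval -1.77 to 1.24, adjusted p = 0.803 in edgeR). Its sign turned with single mice, to 0.60 without mouse 1186 and 0.12 without mouse 1235, and limma-voom with sample weights gave 1.16 (adjusted p = 0.192, with 0.192 to 0.949 over all settings and left-out mice). On the log2 scale the SD between mice of one cull day was 2.31 in young and 0.847 in old mice, a log2 ratio of -1.45, and 0.954% of tested genes had a lower ratio (the median was 0.07). This difference in spread is a description of these mice and was not tested. Cish exons overlap the predicted genes Gm17040 and Gm17041 on the opposite strand.

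Bcl6, the repressor lowered by growth hormone, had the log2 fold change farthest from 0 among the 8 genes. It ran from 4.85 over a median of 43.1 to 71.8 CPM in young and from 5.30 over 15.4 to 53.5 CPM in old mice. Most young mice held 29.2 CPM or more, the exceptions being 1239 at 4.85 and 1186 at 8.47 CPM, while old mice 1236 and 1189 reached 53.5 and 39.9 CPM. The log2 fold change was -0.86 (SE 0.47, 95% interval -1.84 to 0.11, adjusted p = 0.167 in edgeR), 0.550 times the young level. Without old mouse 1236 it was -1.30 (adjusted p = 0.0489 in edgeR), in a fit that passed 27.9% of genes. Its adjusted p over the left-out mice ran from 0.0489 to 0.260. Of 8 tested corepressor genes that act with Bcl6, 0 passed by age in edgeR or in DESeq2, against 30.9% of all genes in edgeR, and 1 had an unadjusted p under 0.05, against 42.3%.

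**Figure D3:**
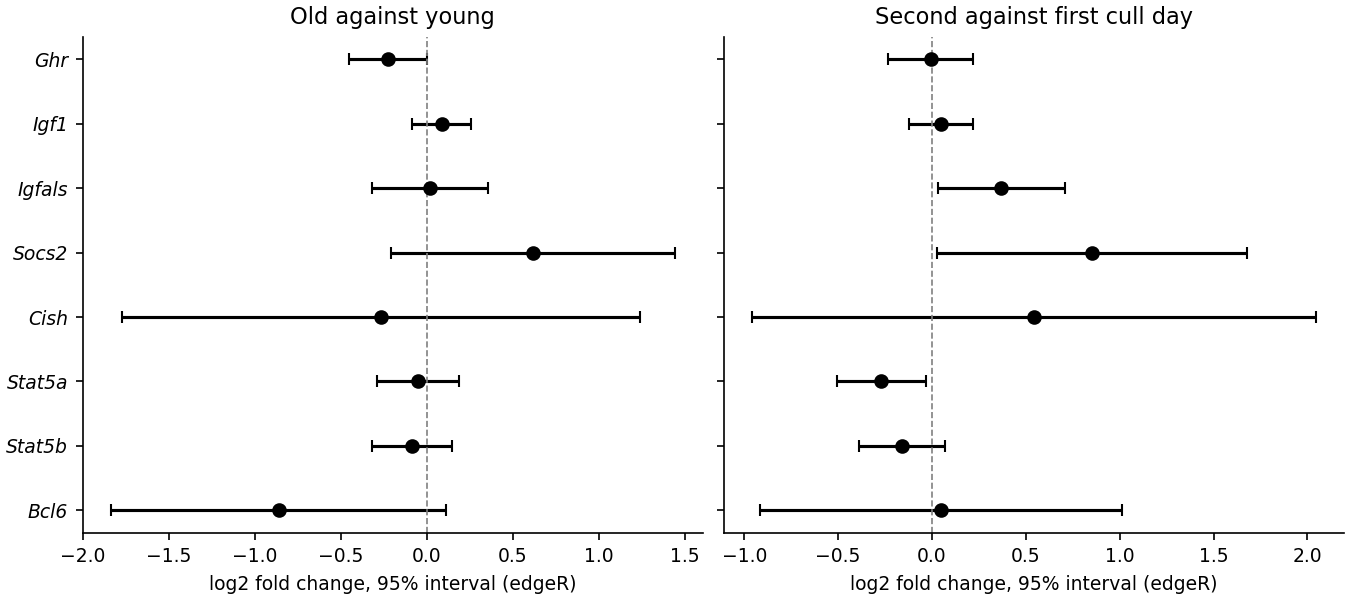
Log2 fold change in edgeR with its 95% interval for each gene, old against young (left) and second against first cull day (right), with a dashed line at 0. The intervals of Cish, Bcl6 and Socs2 are several times wider than those of Igf1, Ghr, Stat5a and Stat5b, and the left interval of Cish runs from -1.77 to 1.24.

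Cish and Bcl6 were inversely related across mice. The r of their log2 CPM over 19 mice was -0.685 (permutation p = 0.00134, adjusted p = 0.0126 over 28 pairs) and rho was -0.726 (permutation p = 0.00065, adjusted p = 0.0140). It was -0.784 without the 2 mice farthest out in Cish, -0.675 and -0.696 within the cull days, -0.426 within old mice and -0.682 after removing age and cull day means. Within young mice no r is given because Cish formed separate clusters. There, 2 of the 3 mice with high Cish, 1186 and 1239, held the lowest Bcl6 levels of the young mice, whereas the third, 1235, held 31.1 CPM of Bcl6 at the highest Cish level. Old mouse 1189 likewise combined the highest Cish of its age with 39.9 CPM of Bcl6. Without mice 1184, 1186 and 1188 the r was -0.634 and no longer passed (adjusted p = 0.0883).

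Socs2 followed Cish less closely and opposed Bcl6, and neither relation passed adjustment. For Socs2 and Cish r was 0.585 (permutation p = 0.0086, adjusted p = 0.0602) and rho 0.528 (permutation p = 0.0212, adjusted p = 0.113), with an r of -0.201 within old mice. For Socs2 and Bcl6 r was -0.504 (permutation p = 0.0281, adjusted p = 0.131) and rho -0.489 (permutation p = 0.0347, adjusted p = 0.122). Young mice 1235 and 1239, high in Cish, also held 31.3 and 25 CPM of Socs2, but mouse 1243 held the highest young Socs2 level at 33.9 CPM with only 5.78 CPM of Cish.

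**Figure D4:**
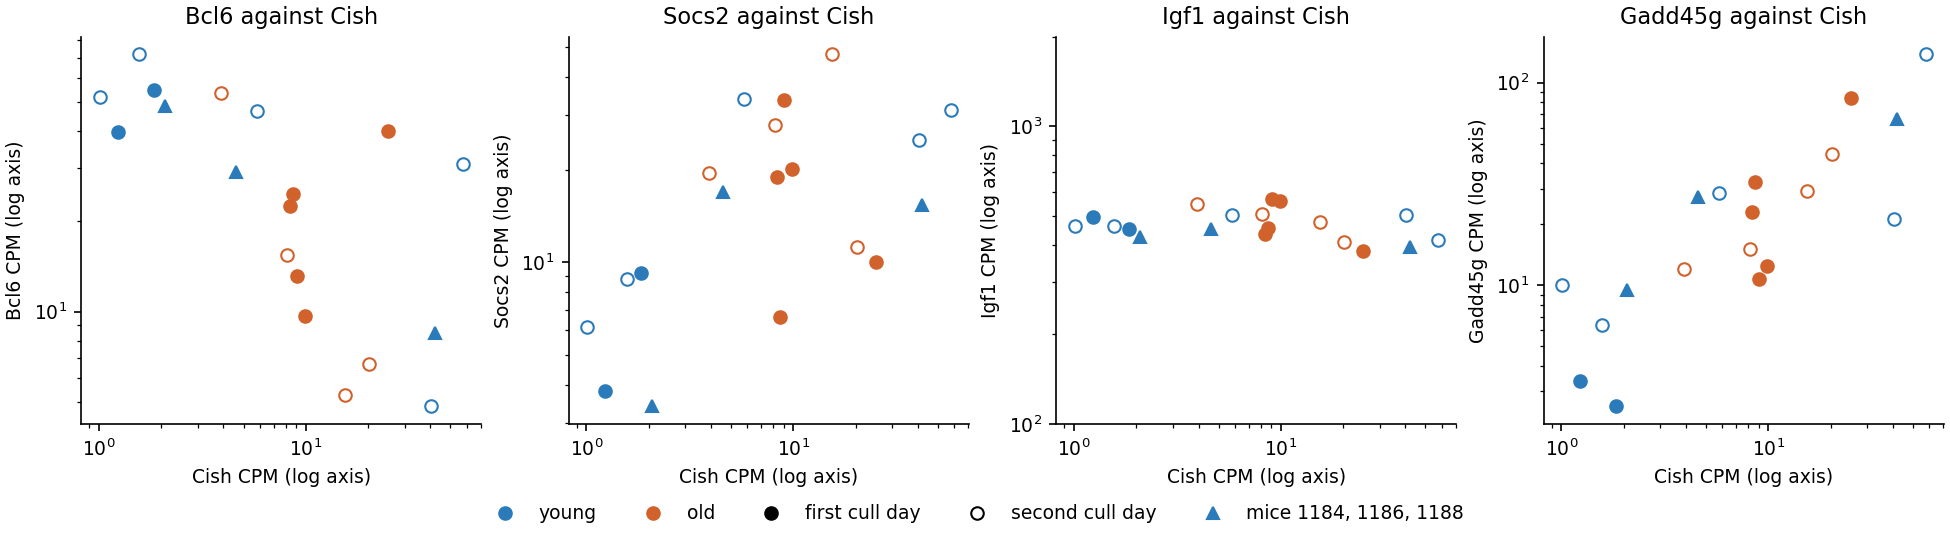
Bcl6, Socs2, Igf1 and Gadd45g in CPM against Cish in CPM, all on log axes; 1 symbol is 1 mouse, blue for young and orange for old, filled for the first and open for the second cull day, with triangles for mice 1184, 1186 and 1188. Bcl6 tends to fall and Gadd45g to rise as Cish goes from 1.01 to 57.5 CPM, and Igf1 stays between 381 and 571 CPM.

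Cish, Bcl6 and Socs2 varied more between mice than most tested genes. After removing age and cull day means, the SD of log2 CPM between mice was 1.79 for Cish, 1.25 for Bcl6 and 1.01 for Socs2, against a median of 0.237 and a 95th percentile of 0.815 over all tested genes. Only 12 of 12269 genes varied more than Cish, 106 more than Bcl6 and 322 more than Socs2. The SD was 0.373 for Igfals, 0.260 for Stat5a, 0.258 for Stat5b, 0.251 for Ghr and 0.176 for Igf1. Igf1, the hormone output of the axis, was thus steadier than most genes: 27.3% of tested genes had a lower SD. Genes were not matched for level in this comparison.

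**Figure D5:**
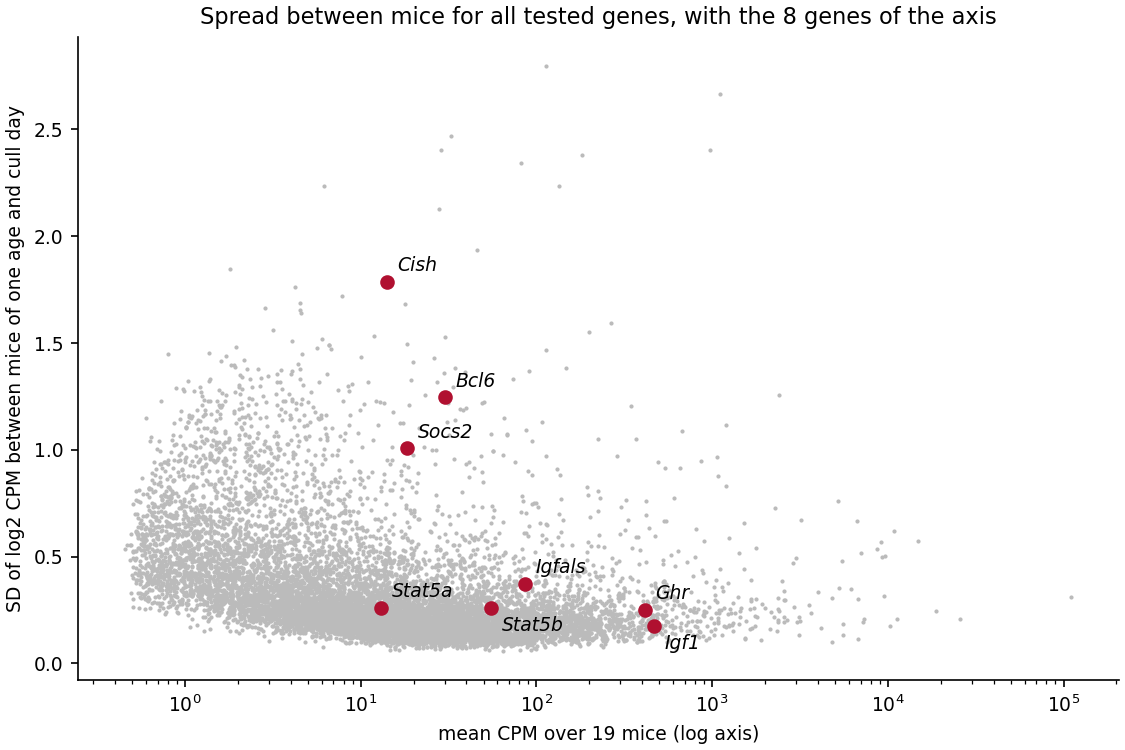
SD of log2 CPM between mice, after removing the means of each age and cull day, against mean CPM over 19 mice on a log axis; grey points are all 12269 tested genes and red points the 8 genes of the axis. Cish at 1.79, Bcl6 at 1.25 and Socs2 at 1.01 stand above the bulk of the grey points, and the other 5 genes lie within it.

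Igf1, which hepatocytes secrete into blood as the main circulating growth factor, ran from 394 to 503 CPM in young and 381 to 571 CPM in old mice, and 4 old mice lay above all young mice. Igf1 averaged 456 ± 37.5 CPM in the 10 young and 482 ± 69.0 CPM in the 9 old mice (mean ± SD). The log2 fold change was 0.08 (SE 0.0820, 95% interval -0.09 to 0.26, adjusted p = 0.455 in edgeR), the narrowest interval of the 8 genes. A change of Igf1 RNA beyond a ratio of 0.942 to 1.19 lies outside that interval.

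Igfals, which holds IGF1 in its long-lived complex in blood, ran from 53.1 to 114 CPM in young and 43.7 to 115 CPM in old mice. The log2 fold change of Igfals was 0.02 (SE 0.162, 95% interval -0.32 to 0.35, adjusted p = 0.948 in edgeR). It became -0.20 (adjusted p = 0.379) without mice 1184, 1186 and 1188, which held the lowest young levels, and -0.23 (adjusted p = 0.178) on the second day alone. Igfals was higher on the second cull day by 0.37 (95% interval 0.03 to 0.71), with an edgeR p of 0.0343 that did not pass (adjusted p = 0.134). Leaving out old mouse 1183 brought it past the threshold (0.45, adjusted p = 0.0457 in edgeR), where 9.26% of genes passed as higher. Stat5a was lower on that day by -0.27 (95% interval -0.51 to -0.03, adjusted p = 0.122 in edgeR).

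Igfals fell with the acute-phase score (r = -0.760, permutation p = 0.00024, adjusted p = 0.00192; rho = -0.647, permutation p = 0.00378, adjusted p = 0.0302). The r was -0.662 without the 2 mice farthest out, and -0.803 and -0.427 within the cull days. Without mice 1184, 1186 and 1188 it was -0.580. Igf1 and Igfals varied together (r = 0.677, permutation p = 0.00135, adjusted p = 0.0126; rho = 0.621, permutation p = 0.00539, adjusted p = 0.0503). Within the first cull day r was 0.931 and within the second 0.01, so the relation did not hold within both days. Without mice 1184, 1186 and 1188 r was 0.618 and no longer passed (adjusted p = 0.0883). The Igf1 to Igfals log2 ratio differed by 0.09 between ages (exact permutation p = 0.482, adjusted p = 0.792).

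Ordered per length over all mice, Ghr at 96.8 was followed by Igf1 at 65.8 ± 7.70, Igfals at 41.1 ± 10.7, Stat5b at 10.6, Bcl6 at 9.28 ± 6.21, Socs2 at 8.29 ± 5.47, Cish at 4.67 ± 5.37 and Stat5a at 3.38 CPM per kb (SD, n = 19). With the lengths of the deposited table the first steps held mouse by mouse: Ghr exceeded Igf1 in 18 of 19 mice, and Igf1 exceeded Igfals and Igfals exceeded Stat5b in 19 of 19. The step from Ghr to Igf1 rests on the 7118 bases given for Igf1, of which GENCODE lists a transcript of 1673 bases. Without regard to length, Igf1 had a mean of 468 and Ghr of 415 CPM. From Stat5b down, neighbours were not separated beyond their spread, since Stat5b exceeded Bcl6 in 11 of 19 mice, Bcl6 exceeded Socs2 in 9, Socs2 exceeded Cish in 14 and Cish exceeded Stat5a in 8.

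The genes most like each member over the 19 mice were listed by Pearson's r among 11070 genes, as a description in which all values share their libraries. For Cish these were Rgs3 (r = 0.866), Wsb1 (0.852) and Gadd45g (0.835), and for Bcl6 Atxn1 (0.696), Zfand3 (0.694) and Lin9 (0.671). Gadd45g, a stress and growth arrest gene, ran from 2.53 to 138 CPM in young mice, with 138, 66.5 and 21.2 CPM in mice 1235, 1186 and 1239, the 3 with high Cish. Mice 1243 and 1184, with low Cish, held 28.6 and 27.3 CPM, more than mouse 1239. For Ghr they were Aldh5a1 (0.926), Fbxo3 (0.916) and Abcd3 (0.912), for Igfals Clec2h (0.917), Sco2 (0.909) and Zfyve21 (0.904), and for Igf1 Scnn1a (0.793), Nat8 (0.790) and Tmem206 (0.784). For Socs2 they were Rfxank (0.789), Nr2c2ap (0.761) and Jund (0.742). Stat5a was most like Arhgef18 (0.827), Sp1 (0.793) and Camta2 (0.763), and Stat5b most like Wdr81 (0.873), Qser1 (0.867) and Kdm2a (0.854).

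In the age comparison without other covariates than cull day, genes that act beside the receptor passed about as often as the table at large. Of 22 tested genes that act with or beside receptors of this kind, among them kinases, adaptors, phosphatases, inhibitors and the related receptor gene Prlr, 4 were higher and 2 lower in old mice (median log2 fold change 0.006), against 16.3% and 14.5% of all tested genes. Prlr, the prolactin receptor and a close relative of Ghr that also signals through STAT5, rose from 47.0 ± 13.2 CPM in the 10 young to 107 ± 33.5 CPM in the 9 old mice (mean ± SD), by 1.15 on the log2 scale (SE 0.191, adjusted p = 0.000385 in edgeR). Log2 fold changes were -0.31 for the phosphatase gene Ptpn11, 0.28 for Pias1 and 0.36 for Socs5, which all passed. Jak2 was among the genes that did not pass. Of 4 tested other STAT genes, Stat2 rose by 0.29 (adjusted p = 0.0499 in edgeR), and 0 of the 4 passed with library totals as scaling, with the other-cell covariate or on the first cull day alone, in fits that passed 26.7%, 12.4% and 3.67% of all genes. In DESeq2 (33.5% of all genes) and on the second cull day alone (19.3%) 1 of the 4 passed, and without mice 1184, 1186 and 1188 (27.2%) 2 did. Of the genes beside the receptor, 3 passed without mice 1184, 1186 and 1188, 1 on the first and 2 on the second cull day alone, in fits that passed 27.2%, 3.67% and 19.3% of all genes. With the other-cell covariate 5 passed, in a fit that passed 12.4% of all genes, and in DESeq2 (33.5%) 7 did.

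Of 9 tested genes of IGF carriers and receptors, 3 rose and none fell, with a median of -0.09, close to the 30.9% of all tested genes that passed. Igfbp3, an IGF carrier that non-parenchymal liver cells make, joins Igfals in the blood complex. Its level rose from 1.83 ± 0.971 CPM in young to 10.8 ± 13.1 CPM in old mice (mean ± SD), by 2.54 on the log2 scale (adjusted p = 0.00128 in edgeR). Igf1r, the IGF1 receptor, rose by 1.16 and Igfbp7 by 1.00. When the other-cell score entered the fit 1 of the 9 passed, and on the first day alone 0, in fits that passed 12.4% and 3.67% of all genes. In DESeq2, which passed 33.5% of all genes, 5 of the 9 passed.

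Target genes further down were counted in the same fit. Of 20 genes that depend on male growth hormone pulses, 10 fell in old mice and 0 rose, with a median of -0.67, where 14.5% of all tested genes were lower and 16.3% higher. Log2 fold changes were -0.90 for Ugt2b1 and -0.83 for Ugt2b38, which encode glucuronidating enzymes, -1.54 for the fatty acid hydroxylase Cyp4a12b and -2.44 for the selenium-binding protein gene Selenbp2. Of 22 genes repressed by those pulses, 11 passed the filter on low counts. A gene near 0 in young mice passes it only where old mice are high, so nothing is read from the count of 3 that rose. They were Ntrk2 at 3.21, Cyp2c69 at 0.88 and Cyp2b9, which had 3 or fewer counts in every young library. Of the first group 6 genes passed with the other-cell covariate, in a fit that passed 12.4% of all genes, and 6 on the first cull day alone, which passed 3.67%. The lists were chosen with earlier results of these data known and are no independent evidence of their direction.

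Other groups tied to the axis were counted in the same fit. Of all tested genes 16.3% were higher and 14.5% lower, and 30.9% passed in either direction. Of 13 lipid genes known to respond to loss of hepatic growth hormone signalling, 4 rose, with a median of 0.89. Log2 fold changes were 1.87 for Scd2, 1.79 for Lpl and 1.87 for Cidec. The fourth, Cidea, a lipid droplet gene, averaged 0.404 CPM in young and 11.2 CPM in old mice and passed the filter on low counts through the old mice. Nothing is read from its call, nor from the count of 4 and the median, which include it. Of 16 liver transcription factors, 2 rose and 6 fell, with Rarb at 1.05 and Onecut2, Foxo3 and Nr5a2 at -0.41, -0.72 and -0.47. Of 12 fasting genes, Pdk4 rose by 1.17, and Lpin1 (-1.21) and Pck1 (-0.50) fell. Of 15 tested clock genes, 1 rose and 7 fell, among them Per2 (-0.68), Nr1d2 (-0.42), Tef (-0.57) and Hlf (-0.37). With the other-cell covariate 2 of the transcription factors and 2 of the clock genes passed, near the 12.4% of all genes in that fit, and on the first cull day alone 1 and 0, beside 3.67% of all genes. On the second day alone, with 19.3% of all genes, 3 transcription factors passed, and on the first day alone 1 fasting gene. Of 22 acute-phase genes, 0 passed over all mice in edgeR (2 at an unadjusted p under 0.05, against 42.3% of all genes) and 1 in DESeq2, but 19 did in edgeR without mice 1184, 1186 and 1188 and 20 on the second cull day alone, in fits that passed 27.2% and 19.3% of all genes. Those mice were set apart by the score of these same genes, so nothing is read from the count without them.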

How the data were processed

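Poly(A) RNA of hepatocytes from 10 young and 9 old mice was sequenced. Estimated counts for all mice came in 1 table that the authors deposited, written by HOMER for mm10 over exons of RefSeq transcripts, per the file headers. STAR and HOMER are named in the submitters' processing notes, with no version. The strand setting and the treatment of reads with several matches are not given in the sources used here. Values came in steps of 0.5 and 29.2% were not whole, so they were rounded before count tests that had been planned for plain counts. Genes held 78.3% to 86.5% of the total in each column name. No 2 libraries of one age agreed within sampling noise (smallest chi-square per degree of freedom 15.1). P-values judge differences and relations against the spread between these mice, each with 1 library.

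Age was tested with edgeR 4.0.16 in R 4.3.3 (quasi-likelihood, TMM scaling, filterByExpr with a minimum count of 10, cull day as covariate), adjusted over all 12269 tested genes by the Benjamini-Hochberg method at 0.05, and checked on simulated data. CPM is the count scaled to a common TMM-adjusted total, and log2 CPM used a prior count of 2. Ratios were compared by exact two-sided permutation within cull days. Correlations were judged by 100000 two-sided permutations over all mice used, which did not hold age or cull day fixed. Lengths are those of the deposited table. Alternatives were other scalings and filters, limma-voom with sample weights (limma 3.58.1), DESeq2 1.42.0, covariates, single cull days and leaving out mice. The members and lists were chosen with earlier results of these data known. The correlation settings were added after seeing the data. Named genes of a list are those with the smallest p among those past the threshold, up to 4, and genes like a member are the 3 with the highest r.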

Additional observations from a re-analysis of the deposited data

How the results depend on the processing

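The count of members passing by age was 0 and became 1 on the second cull day alone, without mice 1184, 1186 and 1188 (Ghr in both) and without mouse 1236 (Bcl6). Leaving out each mouse gave 0 to 1 by age, 0 to 1 by cull day and 0 for the interaction. Log2 fold changes over left-out mice ran from -0.27 to -0.17 for Ghr, 0.05 to 0.12 for Igf1, -0.0732 to 0.0849 for Igfals, 0.42 to 0.75 for Socs2, -0.52 to 0.60 for Cish, -0.119 to 0.00265 for Stat5a, -0.14 to -0.04 for Stat5b and -1.30 to -0.71 for Bcl6. Reversed signs, none past the threshold, came with the other-cell covariate for Ghr (0.0157), Stat5a (0.0608) and Stat5b (0.00591). They came for Igfals with no filter (-0.0155), no cull day term (-0.0333), the second day alone (-0.23) and without the 3 acute-phase mice (-0.20). They came for Cish with limma-voom and sample weights (1.16), the first day alone (0.23) and without those 3 mice (0.21), and for Stat5a on the second day alone (0.0114). Ratios reversed on one day alone: Igf1 to Igfals -0.10 on the first, Stat5b to Stat5a 0.0079 and Socs2 to Cish 0.0306 on the second. Over left-out mice they ran from -0.0779 to 0.0317 for Stat5b to Stat5a, -0.54 to 0.10 for Socs2 to Cish, 0.74 to 1.11 for Socs2 to Ghr and 0.03 to 0.13 for Igf1 to Igfals. The cause was not tested. The 3 pairs of members that passed by r did not pass without the 3 mice, at 0.711 (Stat5a and Stat5b), -0.634 (Cish and Bcl6) and 0.618 (Igf1 and Igfals). Of 66 alternatives for list counts, 44 stayed within 1.5 times. The first cull day alone, which passed 3.67% of all genes against 30.9% over both days, took genes at the receptor from 6 to 1, IGF genes from 3 to 0, liver transcription factors from 8 to 1 and clock genes from 8 to 0. The other-cell covariate, with 12.4% of all genes, took the last 2 lists to 2 each and IGF genes to 1. DESeq2 took IGF genes to 5, and the second day alone took transcription factors to 3. No paired analysis was possible because the library numbers are not shared between ages.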
